A study of Xenopus laevis with 3 samples.

Results

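The miRNAs described here are those of the uninjected dorsal gastrula of *Xenopus laevis*, the African clawed frog, in 1 small RNA library. They are the sequences named after *X. laevis* (prefix xla) or its relative *X. tropicalis* (prefix xtr) with at least 10 raw reads in that library, 71 of the 1985 sequences in the table. The library pooled 30 dorsal pieces (the embryo cut in a dorsal and a ventral part) taken at stage 10.5, the early gastrula, from embryos of 3 independent experiments that had received no injection and had been kept at 14 °C. The study set it beside 1 library each of embryos that received 400 pg of Lhx1-AS or 20 ng of Fry-MO in both dorsal blastomeres at the 4-cell stage, which deplete *lhx1* and *fry*. Neither of those 2 enters a result here. With 1 pooled library there is no replicate, so no p-value and no spread between embryos can be given, and every interval of a share (exact Clopper-Pearson, 95%) covers counting error only.

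A miRNA is a short RNA cut from a hairpin precursor, whose 5′ and 3′ arms can each give a product (5p and 3p). It directs a protein complex to target mRNAs largely through its seed, bases 2 to 8. In frogs, miR-427 is made in large amounts when the embryonic genome is switched on. It promotes the clearance of maternal mRNAs, as miR-430 does in zebrafish. MiR-302 of mammalian embryos is grouped with them by its seed. Members of the miR-15 and miR-16 family are known in the *Xenopus* gastrula for limiting Nodal signalling.

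Some of the described sequences are printed as listed, 5′ to 3′ in DNA letters, with the seed in capitals. They were chosen for the reason given with each set and are not the most read throughout. The first set is the 3 products of the mir-427 precursor, shown because they hold most of the described reads.
miR-427: aAAGTGCTtcctgttttgggcgt
mir-427-p5: aCCCAAAAcggggctctctct
mir-427-p3: cGTGACTGaattatgatgag
The next set is the 4 sequences that lead once mir-427 is left out.
miR-22-3p: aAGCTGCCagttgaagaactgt
miR-148a: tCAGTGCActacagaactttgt
miR-199a-5p: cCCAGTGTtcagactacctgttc
miR-363-3p: aATTGCACggtatccatctgtaa
The following set is shown because its members share a seed although their names carry different numbers; miR-363-3p above, miR-25 and miR-92a share one, miR-16b, miR-15b and miR-15c another, miR-100 and miR-99 another, and miR-428 has that of miR-427.
miR-25: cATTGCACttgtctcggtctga
miR-92a: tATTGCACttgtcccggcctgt
miR-16b: tAGCAGCAcgtaaatattgggt
miR-15b: tAGCAGCAcatcatgatttgc
miR-15c: tAGCAGCAcatcatggtttgta
miR-100: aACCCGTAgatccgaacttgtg
miR-99: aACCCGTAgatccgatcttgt
miR-428: tAAGTGCTctctagttcggttgct

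The sequencer gave 5802603 raw reads for the uninjected library, of which 3157393 (54.4%) were mappable after adapter removal and the length filter, and 133894 of these are in the table of sequences (4.24% of the mappable reads). Of the 1985 sequences, 992 had reads here. Sequences with a *Xenopus* name numbered 175 (25 xla and 150 xtr) and held 56204 reads, 42.0% of the listed reads. Of these, 34 were at 0, which allows up to 3 reads or 0.00534% of the *Xenopus*-named reads, and 70 had some reads but fewer than 10, 222 reads together. The 71 described sequences held 55982 reads, 99.6% of the *Xenopus*-named reads. Reads that fitted several sequences were divided among them by the authors, which gave 13 of the 71 a value that is not whole, with 4.00% of the described reads.

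MiR-427 was the most read of the 71 sequences, with 38438 reads, or 68.7% of the described reads (68.3 to 69.0%). The second was mir-427-p5, by its name a product of the 5′ arm of the same precursor, with 7356 reads (13.1%, 12.9 to 13.4%). Mir-427-p3, by its name a product of the 3′ arm, ranked seventh with 369 reads (0.659%, 0.594 to 0.730%). Its seed differs from that of miR-427, and its place in this precursor was taken from its name only. Together the 3 products of this precursor held 46163 reads, 82.5% of the described reads (82.1 to 82.8%). In bulk tissue the number of cells that hold a miRNA and its amount per cell cannot be told apart. The labelled tissue, an early embryo, was checked against markers. MiR-427, the defining early embryonic miRNA, had the most reads of the *Xenopus*-named sequences. The other early embryo markers were low, with 31 reads for miR-428, 24 for mir-302-p5 and 4 for miR-302. The muscle miRNAs miR-133a and miR-133b were at 0 and miR-133c had 1 read. The muscle check rests on miR-133 only, since miR-1 and miR-206 have no *Xenopus*-named sequence among those analysed here. Markers of differentiated cells also had reads, such as miR-142 of blood cells with 156, endothelial miR-126-3p with 91, red cell miR-451 with 53 and mesenchymal miR-199a-5p with 554.5. Among other blood, fibroblast and smooth muscle markers, miR-199a-3p had 141 reads, miR-143 46, miR-214 14, miR-144 11, miR-145 4 and miR-223 2. Of the neural markers, mir-124-p3 had 8 reads, miR-9a-5p 3.33 and miR-138 0, and of the sensory ones miR-183 had 47, miR-182 14 and miR-96 1. Liver miR-122 had 12, gut miR-192 5 and miR-194 0, and epithelial miR-200a 14, miR-205 9 and miR-203 2.

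The remaining 68 sequences shared 9819 reads. MiR-22-3p, a widely expressed miRNA of vertebrates, had 1900 reads (3.39% of the described reads, 3.25 to 3.55%) and miR-148a had 1806 (3.23%, 3.08 to 3.38%). The intervals of these neighbours in rank overlapped. MiR-199a-5p, known from mesenchymal cells, had 554.5 reads (0.991%, 0.909 to 1.08%), and miR-363-3p, a member of a mir-17-92 type cluster, had 534 (0.954%); their intervals overlapped too. MiR-181a-5p, known in mammals from lymphocytes, had 361.5 reads. MiR-146b, known in mammals as a brake on innate immune signalling, had 340.5 reads. MiR-100, often encoded near let-7 and miR-125, had 330 reads, and the mir-92a-1-p5 product had 297. These 4 and mir-427-p3 form a run in which no neighbour was separated from the next. MiR-10b, encoded within a Hox gene cluster, had 214.5 reads and lay below that run. MiR-191 followed with 195 reads, miR-27b with 189.3 and miR-148b with 175. The last 5 of the 20 most read sequences were miR-142, a miRNA of blood cells, with 156 reads, miR-30d with 147, miR-199a-3p and miR-26 with 141 each, and miR-93a with 138.5. None of these was separated from its neighbour by its interval. The sequences below them ran from miR-16b with 131.5 reads down to 11 reads.

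**Figure D1:**
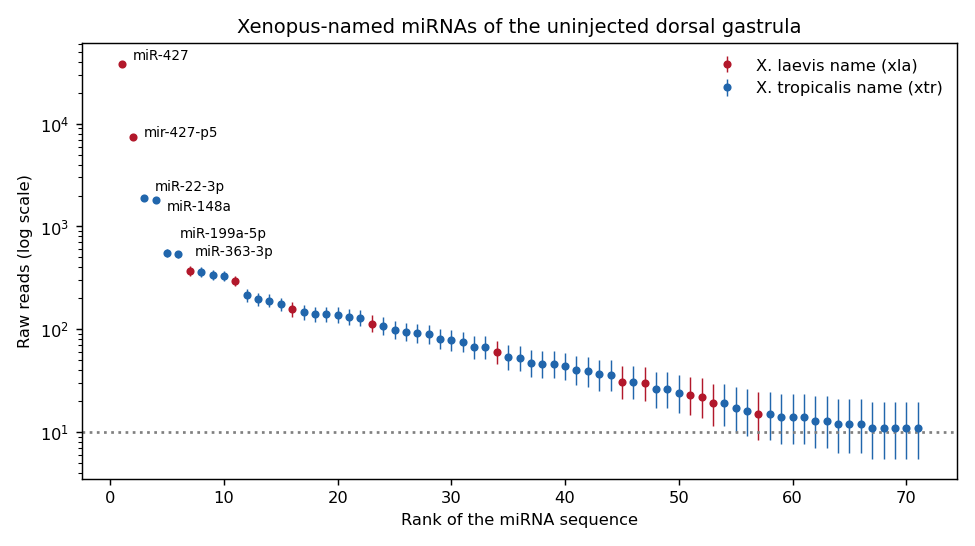
The reads of the 71 described sequences are plotted on a log axis in order of rank, in red for xla and blue for xtr names, with exact 95% Poisson intervals for counting error; the dotted line marks the minimum of 10 reads. MiR-427 (38438 reads) and mir-427-p5 (7356 reads) stand above miR-22-3p (1900) and miR-148a (1806), and the rest run down to 11 reads.

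The reads were concentrated in few sequences. A single sequence was enough to reach 50% of the described reads, 6 reached 90%, 16 reached 95% and 42 reached 99%. Of the 71, 4 had at least 1000 reads, 20 had 100 to 1000, 12 had 50 to 100, 16 had 20 to 50 and 19 had 10 to 20, with a median of 53. Only 5 of the 70 neighbouring pairs in rank had intervals that did not overlap, after ranks 1, 2, 4, 6 and 11, so that below these steps the order of single neighbours is not resolved at this depth. The lowest described sequences, miR-144, miR-338, miR-425-5p, miR-18a-3p and let-7g, had 11 reads each. Just below the minimum stood miR-10c with 9.5 reads, miR-222, miR-205 and miR-130c with 9 each and mir-124-p3 with 8. Without the mir-427 precursor 5 sequences reached 50% and 30 reached 90%; miR-22-3p then held 19.4% of the reads and miR-148a 18.4%.

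Grouped by the number in the name, the 71 sequences fell into 45 families, 28 of them with 1 sequence. The families mir-427, mir-148, mir-22 and mir-199 together reached 90% of the reads. Mir-148 (miR-148a and miR-148b) had 1981 reads (3.54%) and mir-199 had 695.5 (1.24%). Next came mir-363 with 564 reads, mir-30 with 495.5 over 5 sequences, mir-92 with 410.5, mir-181 with 400.5, mir-146 with 340.5, mir-100 with 330 and mir-10 with 322.5. Let-7, which is known to build up late in animal development, had 107.3 reads over 4 sequences. When mir-427 was left out, 19 families were needed to reach 90%. Mir-148 then held 20.2% (19.4 to 21.0%) and mir-22 19.4% (18.6 to 20.1%), whose intervals overlapped, followed by mir-199 with 7.08%, mir-363 with 5.74% and mir-30 with 5.05%.

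**Figure D2:**
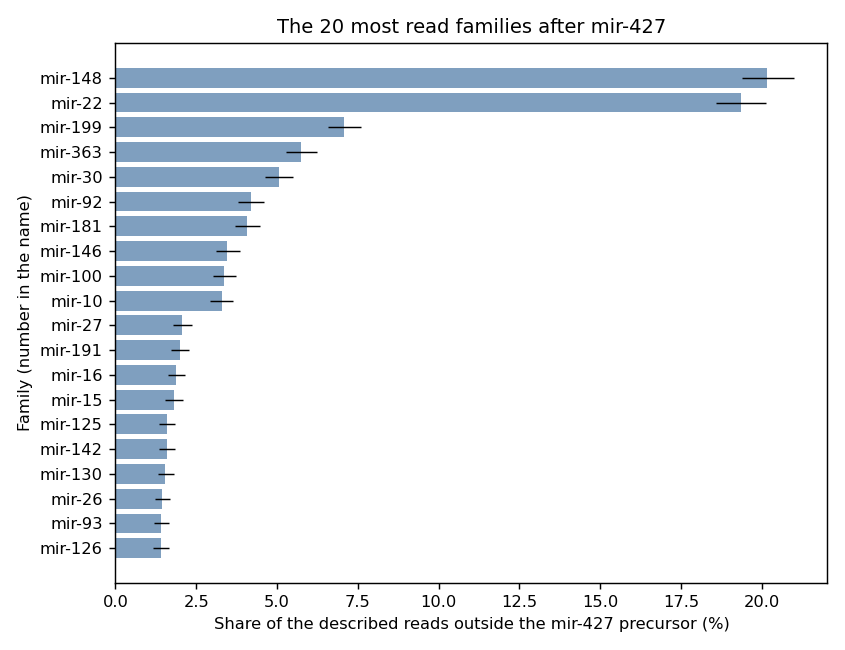
The bars give the share of the 20 most read families after mir-427 in the described reads outside that precursor, in percent from 0, with exact 95% intervals for counting error. Mir-148 (20.2%) and mir-22 (19.4%) overlap and stand above mir-199 (7.08%) and the rest.

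The seed groups sequences by what they can pair with rather than by number. The 71 sequences carried 48 seeds, of which 14 were shared by more than 1 sequence and covered 37 sequences. MiR-427 and miR-428 shared AAGTGCT, where miR-428 added 31 reads to the 38438 of miR-427. The seed ATTGCAC of miR-363-3p, miR-92a and miR-25 had 723.5 reads, of which miR-363-3p gave 534, miR-92a 113.5 and miR-25 76. The 5 miR-30 sequences shared GTAAACA with 495.5 reads. MiR-100 and miR-99 shared ACCCGTA with 397 reads, 330 of them from miR-100. This split holds for *Xenopus* names only, since 3 sequences of other names with this seed had 211 reads. Under all species names the family mir-99 had 267.5 reads. AGCAGCA, the seed of the miR-15 and miR-16 family, had 312.5 reads over miR-16b (131.5), miR-15b (95), miR-15c (60) and miR-16c (26). AAAGTGC, borne by miR-93a, miR-20 and miR-17-5p, had 165.5 reads; it is the miR-427 seed moved by 1 base. MiR-93a (cAAAGTGCtgttcgtgcaggt) carries an extra base at its 5′ end by its listed name, which sets where its seed is counted from.

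By name prefix, 13 xla sequences held 46930 reads, 83.8% (83.5 to 84.1%), and 58 xtr sequences held 9052, 16.2%. This split rested on mir-427, which is listed under *X. laevis*. Without it, 10 xla sequences held 766.5 reads, 7.81% (7.28 to 8.35%), and the xtr sequences 92.2%. A prefix names the species whose catalogued miRNA was matched and not the origin of the read.

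The arm was named for 21 of the 71 sequences. The other 50, miR-427 included, held 44021 reads (78.6%) under names without an arm. Among the 11961 reads with a named arm, 10 sequences of the 3p arm held 3126 reads, 26.1% (25.3 to 26.9%), and 11 of the 5p arm held 8835, of which mir-427-p5 alone gave 7356. This count leaves out the 38438 reads of miR-427, which is taken below as the arm opposite mir-427-p5. The 26.1% is therefore not the share of all described reads on the 3p arm. Without mir-427 the 3p arm led, with 2757 reads against 1479 and a share of 65.1% (63.6 to 66.5%), but miR-22-3p alone gave 1900 of these. Without it too, the 3p arm had 857 reads against the same 1479 and a share of 36.7% (34.7 to 38.7%), so which arm leads depends on these few sequences. Names ending in p5 or p3 were read as products of a known precursor that lack a catalogued name of their own. The 7 such sequences had 8172 reads (14.6%), and the 5 outside mir-427 had 447.

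Paired by name, products of both arms of a precursor had reads in 23 pairs of sequences from 22 precursors, and in 8 pairs both members reached 10 reads. Where a name gives no arm, as with miR-427, the arm was taken as the one opposite its most read partner. MiR-427 exceeded mir-427-p5 5.23-fold when only *Xenopus*-named sequences were counted. Adding sequences of other names within 4 edits (bases changed, added or lost) put the mir-427-p5 side ahead, 63568 reads against 52812. Within 2 edits miR-427 led, so this ratio too rests on which sequences are counted. The rule for names without an arm puts miR-427 on the 3′ arm, the arm that the name of mir-427-p3 also gives, although their sequences are unlike. Outside mir-427 the ratio of the more to the less read arm ran from 1.25 to 475 over 22 pairs. It was at least 10 in 12 pairs, such as miR-22-3p with 1900 reads against 4 for miR-22-5p, and miR-363-3p with 534 against 30 for the other arm. It was under 3 in 5 pairs. MiR-126-3p, an endothelial miRNA, had 91 reads against 46 for miR-126-5p (66.4%, 57.9 to 74.3%), and miR-15c had 60 against 22 for mir-15c-p3. MiR-199a-5p had 554.5 reads and miR-199a-3p 141, a ratio of 3.93. In 4 pairs the uncatalogued p5 or p3 product was the more read arm. Mir-92a-1-p5 had 297 reads against 113.5 for miR-92a (72.4%, 67.8 to 76.7%), although miR-92a can come from either of its precursor copies. A miR-92a sequence named after another species had 167.7 further reads outside this pair, so the share rests on which names are counted. Mir-130b-p5 had 78 against 54 for miR-130b (59.1%, 50.2 to 67.6%). Mir-16a-p3 had 26 against 5.5 and mir-302-p5 had 24 against 4. The miR-16a sequence of this pair is 5 bases short at its 3′ end by its listed name. A miR-16b sequence named after another species had 167 reads outside the pair. Which precursor gave those reads was not tested, so the leading arm of mir-16a also rests on which names are counted. For miR-17-3p (15 reads) and miR-17-5p (12 reads) the interval of the share held 50%, and no leading arm can be named.

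**Figure D3:**
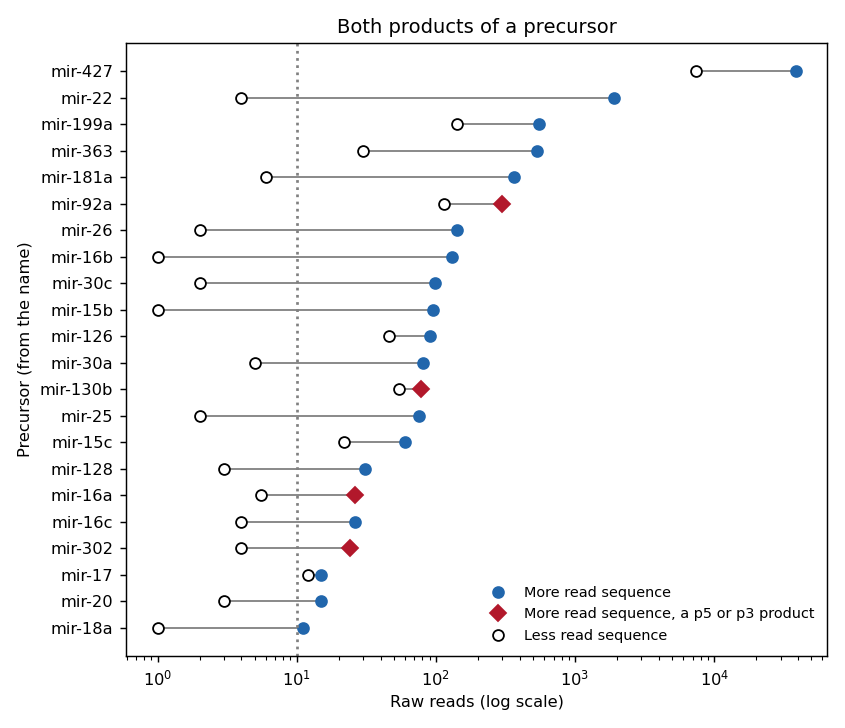
Each line joins the reads of the more read product of a precursor (filled, a red diamond where it is a p5 or p3 product) and the less read one (open), on a log axis, with 1 pair for each of 22 precursors and a dotted line at 10 reads. The distance runs from 1900 against 4 reads for miR-22 to 15 against 12 for miR-17.

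By the suffix of the listed name, 40 of the 71 sequences differed from the sequence that the name refers to, with 41546 reads or 74.2% (73.8 to 74.6%). For 3 of them, mir-427-p3, mir-16a-p3 and mir-302-p5, the name is that of an uncatalogued product and not of a catalogued miRNA. MiR-427 made up most of this, since its listed sequence is 1 base longer at the 3′ end and differs at 1 base. Without the mir-427 precursor 38 sequences with 27.9% of the reads (27.0 to 28.8%) differed. A longer 3′ end, in 20 of them, held 15.98% of the reads outside mir-427 and a shorter one, in 14, held 8.38%. A changed 5′ end, which moves the seed, was listed for miR-142 (2 bases longer), miR-93a (1 base longer) and miR-199a-3p (1 base shorter), with 435.5 reads together, 4.44% of the reads outside mir-427.

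The described sequences were 20 to 24 bases long. Of the reads, 72.3% were in sequences of 23 bases, the length of the listed miR-427, and 14.6% in those of 21 bases, the length of mir-427-p5. Without that precursor 22 bases was the leading length, with 63.6% of the reads and 29 sequences, followed by 23 bases with 20.8%. T, written for U, was the first base of 37 sequences (52.1%), A of 21, C of 13 and G of none. By reads A led with 88.9%, since miR-427 and mir-427-p5 both begin with it; outside mir-427 T had 46.4% and A 40.2%. The GC content ran from 30.0% in miR-144 to 59.1% in miR-214, with a median of 45.5%.

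**Figure D4:**
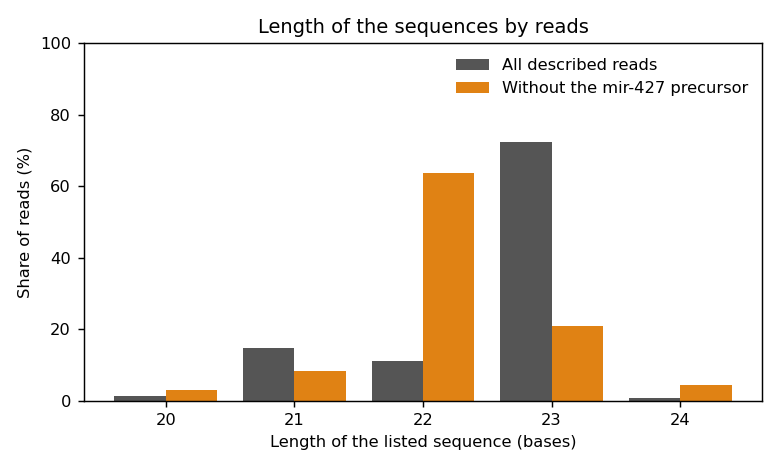
The bars give the share of reads, in percent from 0, by length in bases, for all described reads (grey) and without the mir-427 precursor (orange). The leading length is 23 bases (72.3%) with mir-427 and 22 bases (63.6%) without it.

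Lists of miRNAs with a shared role or tissue were described over all 175 *Xenopus*-named sequences. Of the early embryo list (miR-427, miR-428 and miR-302), 6 of 6 sequences had reads and 5 were described, with 82.2% of the *Xenopus*-named reads. Outside mir-427 its largest members were miR-428 with 31 reads and mir-302-p5 with 24. The mir-17-92 type clusters, known for promoting cell division, had 20 of 23 sequences with reads, 11 of them described, and 1289 reads, 12.8% of the reads outside mir-427. They were led by miR-363-3p, mir-92a-1-p5 and miR-93a. The miR-15 and miR-16 list had 11 of 12 sequences with reads, 6 described, and 376 reads (3.74% of the reads outside mir-427).

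The list of mir-10, its relatives mir-99 and mir-100, and mir-125, several of which lie in Hox clusters or near let-7, had reads for 7 of 7 sequences, 6 described, and 885 reads (8.81% of the reads outside mir-427). It was led by miR-100, miR-10b and miR-10a with 108 reads. Mir-30 had reads for 7 of 7 and 502.5 reads (5.0%), with 147 for miR-30d, 129 for miR-30b and 98.5 for miR-30c. Let-7 had 4 of 9 sequences described and 121.7 reads (1.21%); let-7f had 44, let-7c 36.3 and let-7i 16. The list of miR-23, miR-24 and miR-27, which form clusters, had 5 of 9 described and 255 reads (2.54%), led by miR-27b with 189.3, miR-23a with 23 and miR-24a-3p with 17. The largest list outside mir-427 was that of widely expressed miRNAs, with 12 of 23 described and 4826 reads (48.1%), most of them from miR-22-3p and miR-148a.

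Lists of differentiated tissues were unevenly represented in reads. Their counts of sequences are again to be read beside the 141 with reads and 71 described of all 175. For muscle, 1 read of miR-133c was listed, miR-133a and miR-133b were at 0, and miR-1 and miR-206 have no *Xenopus*-named sequence among those analysed here. The neural and sensory list had 13 of 19 sequences with reads, 4 described, and 125 reads. These were 0.222% of the *Xenopus*-named reads and 1.24% of those outside mir-427. The described members were miR-183 with 47, miR-128 with 31, miR-182 with 14 and miR-338 with 11. Below 10 reads were mir-124-p3 with 8, miR-9a-5p with 3.33, mir-128-1-p5 with 3, and miR-132 and mir-212-p5 with 2 each. MiR-7 had 1.33 reads, miR-96 and miR-9b had 1 each and miR-9-3p had 0.333. MiR-138, miR-129, miR-153, miR-218, mir-219-p3 and mir-338-2-p5 were at 0. The list of gut, liver, kidney and skin epithelium had 2 of 12 described, miR-200a with 14 reads and miR-122, a liver miRNA, with 12. It had 53 reads in all (0.0943%, or 0.528% of the reads outside mir-427).

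The blood and endothelium list had 378 reads and 5 of 11 sequences described, beside 71 of 175 over all *Xenopus*-named sequences. The 378 reads were 0.673% of the *Xenopus*-named reads and 3.76% of those outside mir-427. The described members were miR-142 with 156, miR-126-3p with 91, miR-451, a red cell miRNA, with 53, miR-126-5p with 46 and miR-144, encoded beside miR-451, with 11. Below 10 reads were miR-222 with 9, miR-221 with 7, mir-150-p3 with 3 and miR-223 with 2, while miR-150 and mir-221-p5 were at 0. The fibroblast and smooth muscle list had 4 of 8 described and 764 reads (1.36%, or 7.61% of the reads outside mir-427). Of these, miR-199a-5p gave 554.5, miR-199a-3p 141 and miR-143 46. MiR-214, encoded beside miR-199a, had 14, miR-145 had 4, miR-140 had 3 and miR-199b had 1.5, and mir-199b-p3 was at 0. The origin of the reads of these lists was not tested. MiR-146b (340.5 reads) and miR-204 (35.5 reads) were on no list.

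**Figure D5:**
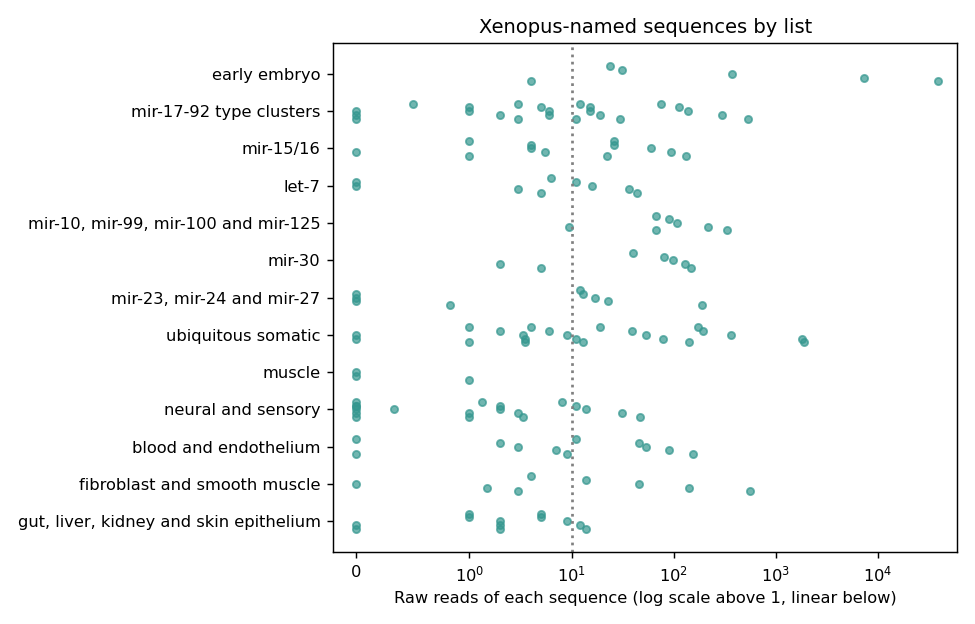
Each point is a *Xenopus*-named sequence of a list, placed by its raw reads (log axis above 1 read, linear below it, with sequences at 0 on the left), and the dotted line marks 10 reads. The early embryo list reaches 38438 reads and the widely expressed (ubiquitous somatic) list 1900, while no muscle sequence passes 1 read.

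The described sequences are not all of the small RNA that resembles them. Predicted sequences without a catalogued name held 53.98% of the listed reads (53.7 to 54.3%), and the most read of them differ little from products of mir-427. The 3 most read are shown because, when counted beside the named products, they move the ratio of mir-427-p5 to miR-427.
predicted sequence A: aCCCAAAActaagctctctct
predicted sequence B: aAAGTGCTtcctgttttgggcgta
predicted sequence C: aCCCAAAActaagctctctc
Sequence A had 49174 reads, more than the listed miR-427, and is 3 edits (bases changed, added or lost) from mir-427-p5. Sequence B had 12981 reads and is 1 edit from miR-427. Sequence C had 5311 reads and is 4 edits from mir-427-p5. By a rule chosen after the values were seen, sequences of another name within 4 edits of either product were counted. There were 19 near miR-427, 18 of them predicted, with 14374 reads, and 11 near mir-427-p5, all predicted, with 56212 reads. With the 3 named products they made up 87.2% of all listed reads (87.0 to 87.4%). Counted this way, the mir-427-p5 side held 63568 reads and the miR-427 side 52812, so that sequences like mir-427-p5 had 54.6% of the pair, against 16.1% (15.7 to 16.4%) when only the *Xenopus*-named sequences were counted. Within 2 edits, which leaves out sequences A and C, the order was reversed, with 7614 reads against 52239 and a share of 12.7%. The balance therefore rests on whether A and C are counted. Where these sequences lie in the genome was not analysed here.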

How the data were processed

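Small RNA of the pooled dorsal pieces was sequenced by the authors on the Illumina platform with reads of 40 bases. The authors cut the 3′ adapter, kept 15 to 32 bases and aligned them in the ACGT101-miR program against miRBase and against genomes of *X. laevis* and other chordates; release and builds were not given in the sources used here. Deposited were estimated counts by the authors (raw reads per sequence, divided where a read fitted several), a normalized signal (raw reads divided by a library size parameter of 0.921, with 0 written as 0.001), and a deposited summary with the number of reads at each step. Only the uninjected library was used, and raw reads were used throughout. Numbering in the table reaches 1987, with 2 lines not analysed here. No genome positions are given for the miRNAs.

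Sequences with a *Xenopus* name and at least 10 reads were ranked. Shares are of reads, with exact Clopper-Pearson intervals at 95% (scipy 1.17.1, Python 3.11.15) on reads rounded to whole numbers. Their coverage was tested on counts simulated from the shares of this library with counting error only, so that test says nothing of other errors. Families were taken from the number in the name, arms and differences from its suffix, and seeds from bases 2 to 8. The sources used here do not explain the suffixes or the prefix of the predicted sequences. Both were read as the ACGT101-miR program writes them, which is an assumption. The text names the 20 most read sequences, up to 3 leading members of each list, all mir-427 products and the precursors with both arms described; other sequences named were chosen after their values were seen. Members and lists were chosen with earlier results of these data known. PCR copies are not independent molecules, so intervals and the limit of 3 reads cover counting error only. Alternatives changed the minimum of reads, the denominator, the grouping, and the inclusion of mir-427 and of p5 and p3 products.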

Additional observations from a re-analysis of the deposited data

Results flagged for a closer look

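Sequences outside the 71 described held much of the signal, above the 3 reads that a count of 0 allows. The 334 predicted sequences had 72282 reads, with 225 of them read and 51 at 10 reads or more. The 1476 sequences named after other species, from 40 species prefixes, had 5408 reads (4.04% of the listed reads), with 626 read and 72 at 10 reads or more. The most read names of other species were a relative of sha-mir-716b with 447.0 reads, one of hsa-miR-3168 with 409 and one of tgu-mir-1559 with 298.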

How the results depend on the processing

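The number of described sequences was 71 at a minimum of 10 reads, 137 at a minimum of 1 read and 36 at 50 reads. The mir-427 share of 82.5% became 34.5% of all listed reads, 1.46% of the mappable reads, 82.1% with no minimum and 80.4% without p5 and p3 products, and was 82.5% on the normalized signal. Without the mir-427 precursor, 19 families in place of 4 were needed for 90% of the reads, and the 3p share of reads with a named arm was 65.1% in place of 26.1%. Also without it, the *X. laevis* share was 7.81% in place of 83.8%. The share in sequences that differ by their suffix was then 27.9% in place of 74.2%. Leaving out p5 and p3 products put the 3p share at 71.5%, and leaving out both mir-427 and miR-22-3p, added after seeing the data, at 36.7%. The count of mir-427 sequences and their relatives, added after seeing the data, gave 87.2% of the listed reads at 4 edits, 45.0% at 2 edits and 87.3% at 6 edits, and the share of sequences like mir-427-p5 in its pair with miR-427 was 54.6%, 12.7% and 54.6% at these limits. The 3 alternatives that need reference miRNA sequences were not run. No paired analysis was possible because there was 1 library and no replicate. Depth limits the low ranks: 19 of the 71 sequences had 10 to 20 reads.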

Other observations

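Summing sequences under every species name, with no minimum of reads, raised 8 of the 45 families more than 1.5-fold over the described *Xenopus*-named reads. The family mir-99 had 267.5 reads in place of 67, mir-16 had 393.4 in place of 183.5, mir-92 had 649.4 in place of 410.5 and mir-30 had 760.0 in place of 495.5. Mir-200 had 37 in place of 14 and mir-144 had 26 in place of 11. Mir-18 had 20 in place of 11 and mir-20 had 25.5 in place of 15. The sums include *Xenopus*-named sequences below the minimum of reads, so a rise is not from other species names alone. For mir-18 these were mir-18-p3 with 6 reads, and miR-18 and miR-18a-5p with 1 each. For mir-20 they were mir-20-p3 and miR-20a-5p with 3 each. Mir-99 and mir-144 had no such sequence. The seed ATTGCAC of miR-363-3p, miR-92a and miR-25 was also listed in 8 sequences of other names with 209.9 reads, and AGCAGCA in 13 with 228.3. The miR-30 seed GTAAACA was listed in 2 with 1.5 reads, so the reads added to mir-30 were mostly in sequences without that seed.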
